A study of Homo sapiens with 4 samples.

Results

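SOX and RUNX transcription factors were examined in HK-2 cells, an immortalised line of human kidney proximal tubule epithelium, untreated or given the cytokine TGF-β1 (transforming growth factor β1). The 8 genes, SOX4, SOX9, SOX12, SOX13, RUNX1, RUNX2, RUNX3 and CBFB, were taken by symbol from the 25609 genes of the deposited table. The rule uses no measured value, although the names were listed with earlier results of these data known. The 2 control and 2 TGF-β1 libraries were wild type, and all came from the same line. Cells went 24 h without serum, TGF-β1 was applied at 20 ng/mL for 24 h, and the uridine analogue 4-thiouridine was present at 100 μM over the last 20 h. The labels give this protocol once for both groups, and controls were taken to have had every step except TGF-β1. The molecule sequenced is given as total RNA, and the labels do not say whether replicates were separate cultures. The spread behind each p-value is therefore that between the 2 libraries of a group and may be technical. The test used, limma, also draws the spread of each gene towards a trend over all tested genes. With 2 libraries against 2, an exact permutation test of a single value cannot go below p = 0.333.

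SOX proteins bind DNA through an HMG box and bend it, and they fall into groups with similar boxes: SOX4, SOX11 and SOX12 form group C, SOX9 belongs to group E and SOX13 to group D. SOX9 is best known for cartilage and for kidney tubule cells that regenerate after injury, and SOX4 is a known target of TGF-β in epithelial-mesenchymal transition. RUNX1, RUNX2 and RUNX3 bind DNA through a Runt domain, each as a heterodimer with CBFB, a subunit that does not touch DNA itself but strengthens the binding. RUNX proteins also form complexes with SMADs, the transcription factors that TGF-β receptors activate.

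Reads recovered from the RPKM values (reads divided by exon length and a size per library) summed to 3313119 and 4766291 in controls and to 4604167 and 5409421 with TGF-β1. The library size implied by the values was 1.02 and 0.986 times these sums in controls, and 0.903 and 0.871 times with TGF-β1. The deposited scaling was thus not by summed reads, and scaling by them is among the alternatives below. Markers of the labelled cell type were in part present: PAX8, the renal lineage factor, and the keratin genes KRT8 and KRT18 were abundant, CUBN had 1 to 2 reads in every library, and LRP2 and HNF4A were not analysed here. The 15 tubule and epithelial markers in the table summed to 331 and 364 RPKM in controls and to 423 and 462 RPKM with TGF-β1, and 3 of the 10 tested rose and 3 fell. By p value the leading 3 were PAX8 (log2 fold change -1.50), KRT8 (1.19) and DPP4 (-0.80). The call for DPP4 was lost without TGF-β1 replicate 2 (adjusted p = 0.0625, limma) and without the variance trend (0.0652). Endothelial markers (CDH5, VWF) had 0 reads in all libraries, leukocyte markers summed to between 8 and 17 reads, and fibroblast markers, nearly all LUM, to 130 and 186 control reads against 116 and 105 after TGF-β1. LUM itself measured 12.1 and 12.9 RPKM in controls, against 8.76 and 6.74 RPKM after TGF-β1 (log2 -0.67, adjusted p = 0.0567, limma), and it was called lower without TGF-β1 replicate 1 (0.0444) and with the 4 other scalings (0.0371 to 0.0478). What part these shifts have in the results below was not tested. In bulk RNA, fewer cells of a type and less RNA per cell cannot be told apart.

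The title of the series names miR-17 and miR-20a, 2 microRNAs that share a seed, the stretch of bases 2 to 8 that pairs with a target. Their mature sequences, from RefSeq (GRCh38.p14, chromosome 13, plus strand, 91350618 to 91350640 and 91351072 to 91351094), are shown 5′ to 3′ with the seed in capitals because the same word was searched in the 8 genes.
miR-17-5p: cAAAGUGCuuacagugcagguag
miR-20a-5p: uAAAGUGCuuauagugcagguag

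The matching DNA word GCACTTT was present in the longest annotated 3′ UTR of RUNX1, RUNX2, RUNX3, SOX4 and SOX12, and not in those of SOX9, SOX13 and CBFB (GENCODE release 29, hg38). RUNX3 held 2 matches and the other genes 1 each. These UTRs ran from 1609 to 4334 bases, and among 3737 tested protein-coding genes with a 3′ UTR in that range 36.9% held the word. All 3 RUNX genes carry it, and each site is shown on the transcribed strand with the match in capitals.
SOX4 site (chr6:21598058-21598064, plus strand): acatcttttttGCACTTTttttataagca
SOX12 site (chr20:327984-327990, plus strand): gaaaaactgagGCACTTTggtgctagggg
RUNX1 site (chr21:34790192-34790198, minus strand): cacatgcagtaGCACTTTggtaagagtta
RUNX2 site (chr6:45549102-45549108, plus strand): ttctgtggcatGCACTTTgaccactcctg
RUNX3 first site (chr1:24901366-24901372, minus strand): ggctcctccatGCACTTTaccagctcaac
RUNX3 second site (chr1:24900040-24900046, minus strand): cccagtgcccaGCACTTTgtagtctcatc
A match is a description of sequence, and pairing or repression at these sites was not measured. Genes with the word included some that rose with TGF-β1 (SOX4, RUNX1) and some that did not pass the test (SOX12, RUNX2).

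SOX9, SOX4 and RUNX1 rose with TGF-β1, though the call for RUNX1 held under only 5 of 15 alternative settings. SOX12, SOX13, RUNX2 and CBFB did not pass the test, and RUNX3 went from 0 reads in both controls to 7 and 9. Genes with a mean of at least 0.5 RPKM over the 4 libraries were tested with limma on log2(RPKM + 0.5), and a gene is called changed at an adjusted p (Benjamini-Hochberg, over 16590 genes) below 0.05. RUNX3 lay under this filter, so 7 of the 8 genes were tested, of which 3 rose and 0 fell. Across all tested genes 9.12% were called, 6.12% as higher. At an unadjusted p below 0.05 the counts for the 7 were also 3 higher and 0 lower, where 25.0% of all tested genes passed, 15.6% as higher. Voom, a limma variant run on recovered reads, weights each value by the variance expected at its read count. With it 22.5% of 15604 genes were called, among them SOX4, SOX9 and RUNX1 as higher and SOX13 as lower. Voom also called RUNX3, which had to differ, since it entered only through its TGF-β1 reads. In 4 of the 7 both TGF-β1 libraries lay above both controls, and in 1, SOX13, both lay below. The groups failed to overlap in 54.1% of all tested genes, with TGF-β1 higher in 29.5% and lower in 24.6%. The median log2 fold change was 0.25 over the 7 genes and 0.03 over all tested genes.

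**Figure D1:**
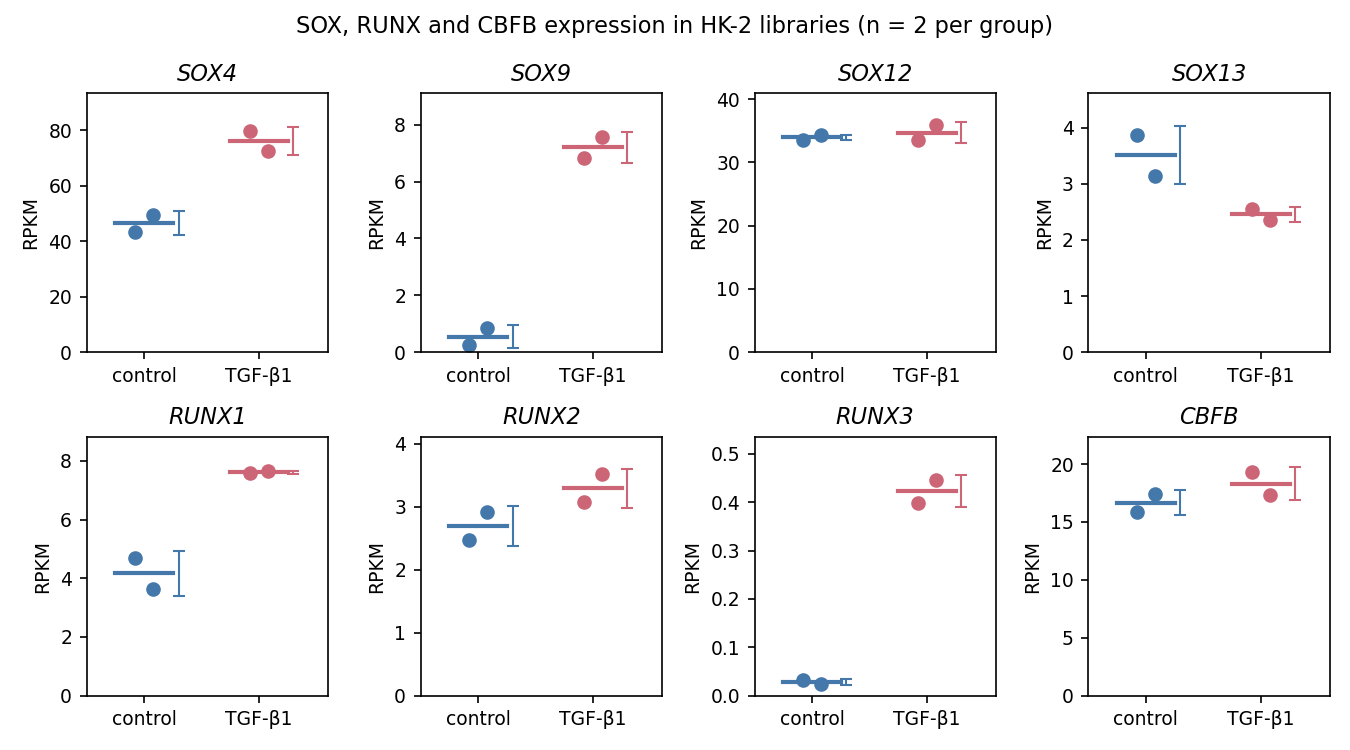
RPKM of each of the 8 genes on the y axis, starting at 0, in control (blue) and TGF-β1 (red) libraries. Points are single libraries, horizontal lines group means and bars the SD (n = 2); in proportion SOX9 and RUNX3 show the widest separation, while SOX12 and CBFB overlap. The control points of RUNX3 (0.0326 and 0.0235 RPKM) stand for 0 reads, because 0.5 read was added to every count.

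SOX9 (ENSG00000125398.5, hg38 chromosome 17, plus strand, 72121020 to 72126420 in GENCODE 29, which holds another version of the identifier) had the largest log2 change of the 7 tested genes. It measured 0.262 and 0.838 RPKM in controls, against 6.82 and 7.58 RPKM with TGF-β1. Both treated libraries lay far above both controls, and the controls themselves differed more, in proportion, than the treated pair. Group means were 0.550 ± 0.407 and 7.20 ± 0.541 RPKM (SD, n = 2), a 13.1-fold difference. On the log2 scale the difference was 2.93 (standard error 0.31, 95% confidence interval 2.14 to 3.72, adjusted p = 0.00932, limma), the 18th highest of the 16590 tested genes. Control values rested on 3 and 15 reads, against 111 and 140 with TGF-β1. The ratio of summed reads per implied library size was 12.7, with a 95% interval of 7.89 to 21.8 that covers counting error only. The call held under all 15 alternatives. With the filter at 2 RPKM, SOX9 entered only through its level with TGF-β1, so that setting adds no support. The size of the change depended on the control library kept. The log2 fold change was 2.52 without control replicate 1 and 3.33 without control replicate 2.

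SOX4 (ENSG00000124766.6, chromosome 6, 21592768 to 21598619, plus strand, a single exon) was the most abundant of the 8 genes. Its level was higher than that of 95.9% of tested genes. Controls had 43.5 and 49.5 RPKM and TGF-β1 libraries 79.8 and 72.6 RPKM, from 862 to 2001 reads per library. The groups were separated by more than the spread within either. Means rose 1.64-fold from 46.5 ± 4.24 to 76.2 ± 5.06 RPKM (SD, n = 2), or by 0.71 on the log2 scale (standard error 0.09, 95% confidence interval 0.48 to 0.94, adjusted p = 0.0156, limma). The call was lost without the variance trend (adjusted p = 0.0895, limma) and held under the other 14 alternatives. The difference was smallest, 0.50 on the log2 scale, after quantile normalisation.

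SOX12 (ENSG00000177732.8, chromosome 20, 325595 to 330224, plus strand, a single exon) is the other group C gene of the 8 and was also abundant. It measured 33.6 and 34.3 RPKM in controls and 33.5 and 35.8 RPKM with TGF-β1, so that the groups overlapped. The log2 fold change was 0.03 (95% confidence interval -0.15 to 0.21, adjusted p = 0.844, limma), and its sign changed with the scaling. The interval lies below that of SOX4, and the ratio of SOX4 to SOX12 was 1.29 and 1.44 in controls and 2.38 and 2.03 with TGF-β1. This ratio was higher in both TGF-β1 libraries (exact permutation p = 0.333, two-sided, the smallest possible).

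SOX11, the third group C gene, had a lower level. It measured 2.93 and 2.99 RPKM in controls and 3.79 and 3.69 RPKM with TGF-β1, with no overlap, and did not pass the test (log2 fold change 0.30, adjusted p = 0.306, limma). Over SOX4, SOX7, SOX9, SOX11, SOX12, SOX13, SOX15 and SOX18 together, SOX4 made up 49.8% and 53.3% of the summed RPKM in controls and 61.1% and 57.8% with TGF-β1. SOX12 made up 38.5% and 36.9% in controls and 25.7% and 28.5% with TGF-β1. The share of SOX9 went from 0.301% and 0.904% to 5.22% and 6.03%. These shares are descriptions of RPKM, a level per length, and were not tested.

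SOX13 (ENSG00000143842.14, chromosome 1, 204073115 to 204127743, plus strand), a group D gene, was the only 1 of the 7 tested whose values were lower in both TGF-β1 libraries. Controls had 3.88 and 3.14 RPKM and TGF-β1 libraries 2.55 and 2.36 RPKM. The difference of -0.43 on the log2 scale did not pass (95% confidence interval -0.89 to 0.02, adjusted p = 0.220, limma). It rested on 78 to 109 reads per library. With voom, added after the data were seen, it was called lower (adjusted p = 0.0421). The other group D genes, SOX5 and SOX6, had 0 to 5 reads per library.

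Of 15 further SOX genes, 9 were in the table and 3, SOX11, SOX15 and SOX18, passed the filter, and by limma 0 were called, as many as at an unadjusted p below 0.05 and by voom. SOX18, a group F factor of vessel endothelium, measured 1.19 and 0.970 RPKM in controls and 2.78 and 1.54 RPKM with TGF-β1, on 7 to 21 reads (log2 fold change 0.71, 95% confidence interval -0.05 to 1.48, adjusted p = 0.228, limma). SOX15 overlapped between groups, with 0.897 to 1.63 RPKM in controls and 1.17 to 1.86 RPKM with TGF-β1.

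**Figure D2:**
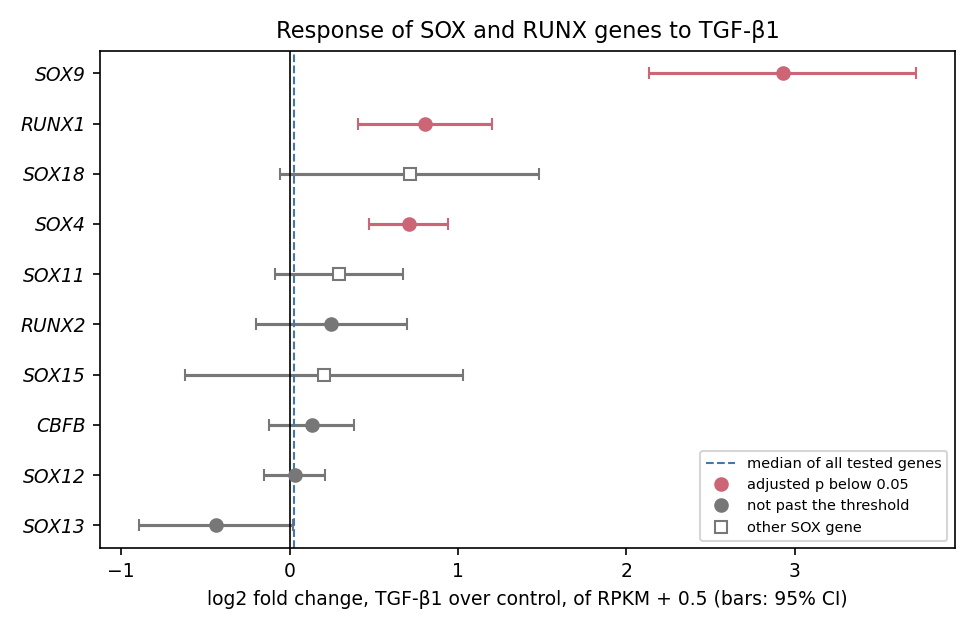
Log2 fold change of RPKM + 0.5, TGF-β1 over control (x axis), for the 7 tested genes (circles) and 3 other SOX genes (open squares), with 95% confidence intervals from limma (n = 2 per group). Red marks adjusted p below 0.05; the dashed line is the median of all tested genes (0.03), and SOX9, at 2.93, stands far to the right of SOX4 (0.71) and RUNX1 (0.81).

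RUNX1 (ENSG00000159216.18, chromosome 21, 34787801 to 36004667, minus strand), a factor of blood stem cells that epithelia also use, was the most abundant RUNX gene in all 4 libraries. It measured 4.71 and 3.63 RPKM in controls and 7.58 and 7.64 RPKM with TGF-β1, from 248 to 560 reads. The treated libraries were nearly equal and both lay above the controls. Means were 4.17 ± 0.763 and 7.61 ± 0.0459 RPKM (SD, n = 2), a 1.83-fold difference or 0.81 on the log2 scale (standard error 0.16, 95% confidence interval 0.41 to 1.21, adjusted p = 0.0413, limma). The rise kept its direction under the 15 alternatives (0.64 to 0.97 on the log2 scale), but the call held under only 5 of them, with adjusted p from 5.34e-08 to 0.150. It was lost without control replicate 2 (adjusted p = 0.0744), TGF-β1 replicate 1 (0.132) or TGF-β1 replicate 2 (0.150), without the filter (0.0710, where 3.82% of 25609 genes were called) or the variance trend (0.0961), and with the 4 other scalings (0.0552 to 0.0827).

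RUNX2 (ENSG00000124813.20, chromosome 6, plus strand, 45328157 to 45664349 in GENCODE 29, which holds another version of the identifier), the master factor of bone formation, measured 2.47 and 2.92 RPKM in controls and 3.07 and 3.51 RPKM with TGF-β1. The groups did not overlap but lay close together, on 68 to 135 reads per library. Its log2 fold change was 0.25 (95% confidence interval -0.20 to 0.70, adjusted p = 0.461, limma). That interval overlaps the one of RUNX1. The ratio of RUNX1 to RUNX2 was 1.91 and 1.24 in controls and 2.47 and 2.18 with TGF-β1 (exact permutation p = 0.333, two-sided, the smallest possible).

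RUNX3 (ENSG00000020633.18, chromosome 1, 24899511 to 24965121, minus strand), a factor of T cells and neurons that is silenced in some carcinomas, had 0 reads in both controls. With TGF-β1 it had 7 and 9 reads, or 0.399 and 0.446 RPKM. Per implied library size RUNX3 was at least 4.87-fold higher. This takes 3 reads as the floor for both controls together and the TGF-β1 reads as counted. With the counting error of both groups the lower 95% limit was 3.52-fold. It has no test here, because it would enter a fit only through the TGF-β1 libraries and its control values are the added 0.5 read alone. Even with TGF-β1 it stayed the lowest of the RUNX genes, at 3.61% and 3.84% of their summed RPKM. RUNX1 made up 65.3% and 55.2% of that sum in controls and 68.6% and 65.9% with TGF-β1.

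CBFB (ENSG00000067955.13, chromosome 16, 67029116 to 67101058, plus strand), the shared partner of the RUNX proteins, measured 15.9 and 17.4 RPKM in controls and 19.3 and 17.3 RPKM with TGF-β1. The groups overlapped, and the log2 fold change was 0.13 (95% confidence interval -0.12 to 0.38, adjusted p = 0.482, limma). It turned slightly negative when libraries were scaled by total recovered reads. The level of CBFB exceeded the summed RPKM of the 3 RUNX genes in every library, by 2.21 and 2.65 times in controls and by 1.75 and 1.49 times with TGF-β1. Transcript levels per length say nothing of protein amounts.

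RUNX genes have a distal and a proximal promoter, and these gene-level values do not tell them apart. RefSeq's table (GRCh38.p14) held 8 windows of 300 bases, from 250 before to 50 after a start site, for 6 of the 8 genes; SOX9 and CBFB had no entry. The RUNX word TGTGGT, searched on both strands, occurred 4 times in the distal window of RUNX2 and 2 times in that of RUNX3. It did not occur in the proximal windows of RUNX2 and RUNX3 or in the single windows of RUNX1, SOX4, SOX12 and SOX13. RefSeq's table held no distal window of RUNX1, so neither the word nor the stretch below was searched there. Of 35116 windows in the table, 13.1% held it at least 1 time and 1.3% at least 2 times. Both distal windows hold a stretch of 18 bases with 2 of the words in tandem, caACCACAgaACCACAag, which lay 14 bases after the start site in RUNX2 and 133 before it in RUNX3. Of the 35116 windows, 2 held this stretch, those of RUNX2 and RUNX3. The windows are shown 5′ to 3′ for the pair that shares it, with the word in capitals on either strand.
RUNX2 distal promoter (chr6:45328080-45328379, plus strand): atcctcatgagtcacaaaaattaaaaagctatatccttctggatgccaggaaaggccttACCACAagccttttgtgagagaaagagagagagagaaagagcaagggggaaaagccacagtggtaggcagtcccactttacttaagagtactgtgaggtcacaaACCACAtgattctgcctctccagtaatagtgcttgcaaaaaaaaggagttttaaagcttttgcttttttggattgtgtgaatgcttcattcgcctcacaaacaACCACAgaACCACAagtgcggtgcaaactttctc
RUNX3 distal promoter (chr1:24964961-24965260, minus strand): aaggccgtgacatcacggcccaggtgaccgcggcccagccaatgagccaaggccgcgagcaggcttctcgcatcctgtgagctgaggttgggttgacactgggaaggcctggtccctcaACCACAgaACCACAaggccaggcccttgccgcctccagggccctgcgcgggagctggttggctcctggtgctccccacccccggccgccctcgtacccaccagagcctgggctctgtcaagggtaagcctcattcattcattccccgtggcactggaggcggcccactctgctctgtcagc
Neither the SOX words ACAAAG and ACAATG (at least 1 in 24.5% of all windows) nor the SMAD word CAGACA (16.9%), searched on both strands, occurred in any of the 8 windows. The distal windows differed in base composition: 42.7% of bases were G or C in RUNX2 and 66.3% in RUNX3, against a median of 58.7% over all windows. The proximal windows of RUNX2 and RUNX3 had 76.0% each and the window of RUNX1 72.0%. No binding was measured.

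Several of the genes overlap other annotated transcripts on the opposite strand, and although the library kit keeps the strand, per the labels, its use in counting was not given in the sources used here. Reads of such pairs may therefore be mixed. The overlapping transcripts carried few reads beside most of the 8 genes: SOX9-AS1 had 0, 1, 2 and 0 reads in the order control 1, control 2, TGF-β1 replicate 1, TGF-β1 replicate 2, and NRSN2-AS1, across SOX12, had 10, 6, 7 and 5. SUPT3H, across RUNX2, had 6, 17, 8 and 16. RUNX3-AS1 was the exception, with 0 and 4 control reads, then 7 and 10 after TGF-β1, about as many as RUNX3 itself. It did not pass the test (log2 fold change 1.47, adjusted p = 0.129, limma), but did without control replicate 2 (0.0283), which leaves 0 reads in the control.

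CASC15, a long non-coding RNA that starts downstream of SOX4 on the same strand (chromosome 6, 21664772 to 22368328), rose beside it. It measured 0.366 and 0.360 RPKM in controls and 1.62 and 1.86 RPKM with TGF-β1, on 16 and 22 against 89 and 116 reads, and it passed the filter only through the treated libraries. Its log2 fold change was 1.37 (adjusted p = 0.0327, limma). The call was lost whichever library was left out (adjusted p = 0.0718 to 0.173, limma) and without the filter (0.0749).

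Among cofactors and modifiers of RUNX proteins, 20 were listed and 18 tested, of which 5 rose and 1 fell (median log2 fold change 0.40). Across all tested genes 9.12% were called, 6.12% as higher. At an unadjusted p below 0.05, 10 of the list were higher and 1 lower (25.0% of all tested genes passed). Among the 10 was TLE2, which passed the filter only through its level with TGF-β1 and so could only be higher. TLE2 measured 0.329 and 0.132 RPKM in controls and 0.864 and 0.710 RPKM with TGF-β1. Voom called 9 of the list higher and 1 lower (22.5% of all). HIPK2, a nuclear kinase that phosphorylates RUNX1 and its coactivators, rose from 36.1 and 35.4 RPKM to 83.0 and 85.1 RPKM (log2 1.22, adjusted p = 0.00176, limma). SMURF1, a ubiquitin ligase that targets RUNX2 and TGF-β pathway proteins, rose from 12.4 RPKM in both controls to 24.9 and 25.2 RPKM (log2 0.99, adjusted p = 0.00407, limma). TLE1, a Groucho corepressor that RUNX proteins recruit, fell from 48.3 and 49.2 RPKM to 27.4 and 29.2 RPKM (log2 -0.78, adjusted p = 0.00601, limma). The other 3 that rose were TLE3, a relative of TLE1, the kinase gene PIM1 and the methyltransferase gene PRMT1, with log2 fold changes of 0.89, 0.58 and 0.55. The call for PIM1 was lost without TGF-β1 replicate 1 (adjusted p = 0.0574), without TGF-β1 replicate 2 (0.0737), after quantile normalisation (0.0687) and with scaling by total reads (0.0642), and that for PRMT1 without TGF-β1 replicate 2 (0.0650). Without the variance trend 2 of the list rose and 0 fell, and TLE1 did not pass (adjusted p = 0.0645, limma).

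Of 16 genes listed as RUNX targets from studies of bone, blood and other tissues, 12 were tested, and 4 rose and 0 fell (median log2 fold change 0.39, with 9.12% of all tested genes called). At an unadjusted p below 0.05, 6 were higher and 1, SPP1, lower (25.0% of all tested genes passed), and voom, over 13 of the list, called 7 higher and 1 lower (22.5% of all). COL1A1, the collagen I chain of bone and scar, rose from 5.21 and 5.17 RPKM to 21.4 and 24.3 RPKM (log2 2.04, adjusted p = 0.00197, limma). CSF1R, the macrophage growth factor receptor and a RUNX1 target in myeloid cells, rose from 2.09 and 2.04 RPKM to 10.1 and 10.6 RPKM (log2 2.08, adjusted p = 0.0028, limma). The leukocyte markers that had values (CD14, CD68 and LYZ) stayed at 8 to 17 reads in sum per library. Which cells the CSF1R reads came from was not tested. MMP13, a collagenase and RUNX2 target, rose from 0.156 and 0.338 RPKM to 2.08 and 2.96 RPKM on 1 and 4 against 24 and 39 reads (log2 2.01, adjusted p = 0.0199, limma). MMP13 passed the filter only through its level with TGF-β1, and its call was lost without TGF-β1 replicate 2 (adjusted p = 0.0970, limma), where 2 of the list rose. VEGFA rose by 0.71 on the log2 scale, a call lost whichever library was left out (adjusted p = 0.0529 to 0.140, limma) and without the variance trend (0.0714). SPP1, the osteopontin gene, had 460 and 596 RPKM in controls, then 321 and 352 RPKM, and did not pass (log2 -0.64, adjusted p = 0.0518, limma). It was called lower with the filter at 2 RPKM (adjusted p = 0.0333), with the 4 other scalings (0.0098 to 0.0358) and without control replicate 1 (0.0175).

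Of 14 cartilage genes listed as targets of SOX9 and its partners, 5 passed the filter, and 1 rose and 0 fell (median log2 fold change 0.47). At an unadjusted p below 0.05, 2 were higher and 0 lower, and voom, over 6 of the list, called 3 higher and 0 lower. For this list and the next, the shares of all tested genes were 9.12% called, 25.0% at an unadjusted p below 0.05 and 22.5% by voom. COL27A1, a fibrillar collagen of cartilage, rose from 1.21 and 0.935 RPKM to 6.46 and 6.76 RPKM (log2 2.18, adjusted p = 0.00469, limma). COL2A1 and ACAN, the defining collagen and proteoglycan of cartilage, had at most 1 read in any library. COMP, another cartilage matrix gene, was under the filter, and its reads went from 0 and 1 to 7 and 9. COMP entered the voom run only through its TGF-β1 reads, so voom could not have called it lower. Of 6 genes listed for SOX4 and group C factors, all were tested, and 1 rose and 0 fell (median 0.17; 2 and 0 both at an unadjusted p below 0.05 and by voom). It was SEMA3C, a secreted semaphorin, which went from 0.965 and 1.71 RPKM to 4.36 and 4.90 RPKM (log2 1.51, adjusted p = 0.0296, limma). Leaving out TGF-β1 replicate 1 ended that call (adjusted p = 0.0788), as did leaving out TGF-β1 replicate 2 (0.112), the filter (0.0637) or the variance trend (0.0729).

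**Figure D3:**
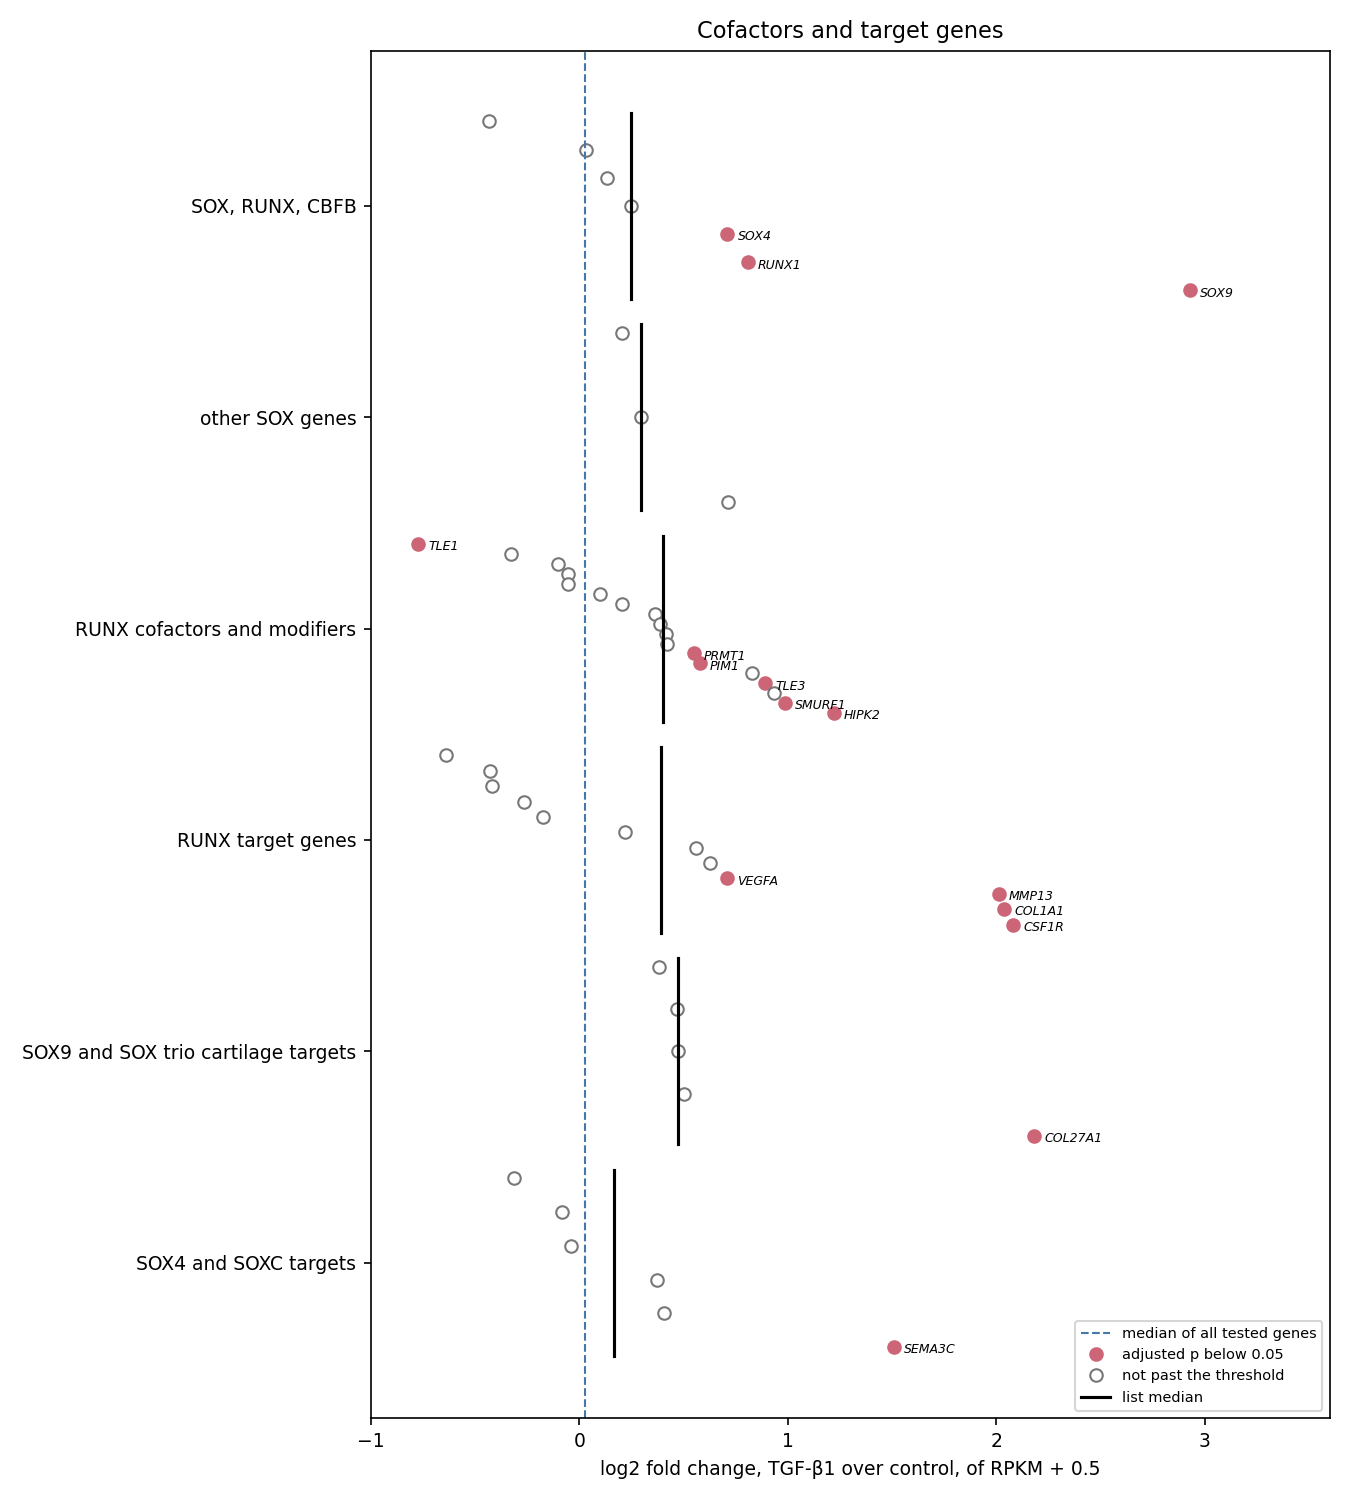
Log2 fold change of RPKM + 0.5, TGF-β1 over control (x axis), for each tested gene of 6 lists (rows, n = 2 libraries per group). Filled red points passed an adjusted p of 0.05 and are named, open points did not; black bars are list medians, from 0.17 to 0.47, and the dashed line is the median of all tested genes (0.03).

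The genes with a pattern most like that of SOX9 were LINC01638, LOX and NKAIN4, at Euclidean distances of 0.0571, 0.216 and 0.251 over the 4 libraries of log2(RPKM + 0.5) centred on each gene's mean. LOX, the lysyl oxidase that cross-links collagen, measured 0.558 and 1.02 RPKM in controls and 8.39 and 9.13 RPKM with TGF-β1. In all, 11 tested genes lay within a distance of 0.5. With 4 libraries in 2 groups this likeness describes little more than the size of the change and the lower value in control replicate 1.

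**Figure D4:**
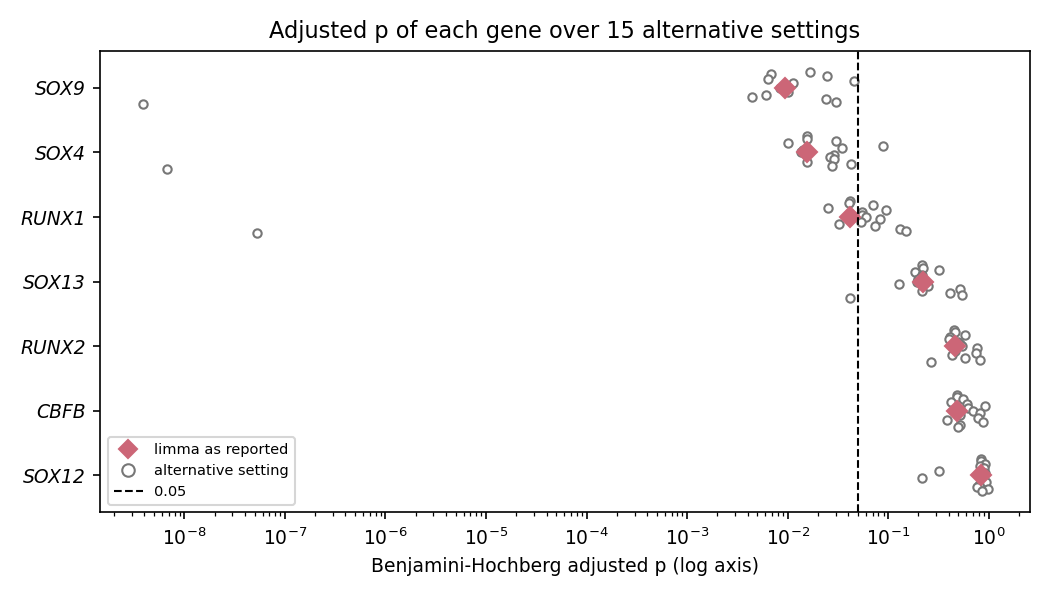
Adjusted p (x axis, log scale) of the 7 tested genes as reported (diamonds) and under 15 alternative settings (open circles), with the threshold of 0.05 dashed. SOX9 stays left of the threshold throughout, SOX4 crosses it 1 time, RUNX1 straddles it, and SOX13 reaches it only with voom on recovered reads (0.0421).

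The split of all calls depended on the scaling: 1015 genes were higher and 498 lower as deposited, 697 and 687 after quantile normalisation, and 656 and 882 when libraries were scaled by total recovered reads. With total recovered reads the median of all genes moved from 0.03 to -0.13 on the log2 scale. Under it SOX9 and SOX4 remained called (log2 2.80 and 0.53), and RUNX1 stood at 0.64.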

How the data were processed

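The authors deposited 1 table of RPKM values for 25609 genes in 4 libraries. Tools named in the submitters' processing notes, without roles, are STAR 2.7.1a, bcl2fastq 2.20.0.422 and DESeq2, with the build hg38. The annotation release was not given in the sources used here. Symbols were found for 25312 identifiers. Times the exon length in GENCODE release 29, every value of an identifier in the same version was a whole number of reads plus 0.5 (tolerance 0.01) times a constant per library. This gave reads for 25347 genes (99.0%), with the length inferred from the values for 1494 whose identifier version differed, SOX9 and RUNX2 among them.

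RPKM as deposited was tested with limma 3.58.1 in R 4.3.3 (lmFit, eBayes with a variance trend) on log2(RPKM + 0.5) over 16590 genes with a mean of at least 0.5. Fold changes on this scale understate those of low genes. Ratios quoted as fold are ratios of mean RPKM. The 15 alternatives covered pseudocount, filter, variance trend, scaling, replicate block, each library left out, and limma's voom on recovered reads, which was added after the data were seen. The script was tested on simulated data. Intervals cover counting error only where so stated, with a confidence level of 95%.

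The 8 genes and all lists were chosen with earlier results of these data known. Named from each list are the 3 called genes with the smallest p, or the 1 with the smallest p where none was called. Others are named only to complete or qualify a count or to give a defining gene, chosen after their values were seen. Sequences are RefSeq's (GRCh38.p14) or GENCODE 29's.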

Additional observations from a re-analysis of the deposited data

How the results depend on the processing

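Of the 7 tested genes, 3 were called. The count was 1 without the variance trend (SOX9). With voom on recovered reads it was 5 of 8 (SOX13 added, and RUNX3, which voom compares with 0 reads). Without the filter it was 3 of 8, with RUNX3, whose control values are the added 0.5 read alone, in place of RUNX1. Over all genes, 1513 calls became 977 without the filter on low values, 424 without the variance trend and 3515 with voom, and between 574 and 1138 when a library was left out (999 without control replicate 1, 739 without TGF-β1 replicate 1), where the lone library of a group is assumed to vary like the other group. Among the tested genes whose fold change is given, direction reversed in CBFB, SOX12 and SOX15, which no setting called. The log2 fold change of CBFB was -0.044 with scaling by total recovered reads. That of SOX12 was -0.13 after quantile normalisation, -0.014 with median-of-ratios scaling, -0.030 with upper-quartile scaling, -0.15 with total recovered reads, and from -0.018 (without TGF-β1 replicate 2) to 0.078 with a library left out. That of SOX15 was -0.10 without control replicate 2 and -0.045 without TGF-β1 replicate 2, in a range up to 0.51. The cause was not tested. Replicates share numbers across groups, but their deviations hardly correlated (r = 0.03 over 16590 genes), and with the replicate block 1344 genes and 2 of the 7 were called, without RUNX1 (adjusted p = 0.0542, limma). With that block CASC15 did not pass (0.0600) and SPP1 did (0.0194). edgeR and DESeq2 on recovered reads were planned and not run, because the table holds RPKM. Depth limits SOX9 in controls, RUNX3 and RUNX3-AS1, which rest on 0 to 15 reads in each library there.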
